A study of Danio rerio with 2 samples.

Results

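Thin filament genes encode the calcium switch of the cardiac sarcomere, and 10 of them were followed here in hearts of the zebrafish mutant heart of stone (hos) and of sibling embryos: tnnt2a, tnni1b, tnnc1a and tnnc1b for troponin, tpm1 and tpm4a for tropomyosin, actc1a for cardiac actin, and lmod2a, lmod2b and lmod3 for leiomodin. The members were chosen by name, with earlier results of these data known. Every open chromatin region that the deposited merged table assigned to one of them was taken. Of the 10 genes, 8 had at least 1 region, giving 22 of the 41473 regions in the table, whereas 22038 genes were named in the table as a whole. No region named tnnc1b or actc1a, and these genes are not described further.

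Chromatin accessibility was measured by ATAC-seq, an assay that reads where a transposase can insert adapters into open DNA. There was 1 library of sibling hearts and 1 library of hos mutant hearts, each pooled from many dissected hearts at 96 hours post-fertilization, with siblings labelled wild type and hos embryos labelled mutant. The title of the series ties the study to Smarce1, which belongs to the chromatin remodelling complex SWI/SNF. The protocol names 60 hearts, and whether this number is per genotype could not be read from it. Both groups came from the hos/Tg(myl7:GFP) line, in which a cardiomyocyte promoter drives GFP, so the controls also carried the reporter. The labels call the cells cardiomyocytes, but the material was whole hearts with no sort, and other cardiac cell types were therefore in both libraries. Fewer cells of a type and less open chromatin per cell cannot be told apart in such pools. Since each genotype had 1 library, no difference below has a replicate check and no p-value is given. The 95% intervals are exact binomial or Poisson intervals on estimated tags and cover counting error only.

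In striated muscle, actin filaments carry tropomyosin, which lies along the filament and covers the sites where myosin binds. Troponin holds tropomyosin in place, and calcium binding to troponin C shifts the complex so that contraction can start. Leiomodins nucleate actin filaments and lengthen them at the pointed end, so they bear on how long a thin filament becomes.

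The values are average signals, that is, the mean height of the tag pileup over a region. A log2 ratio is the log2 of (hos signal + 1) over (sibling signal + 1), and a promoter is the region nearest to the gene start within 1000 bp. Over all 41473 regions the median log2 ratio was 0.15, and over the promoters of 14591 genes it was 0.25, so a ratio near these values is the general level of the hos library. Estimated tags over all regions came to 4.09143e+06 for the sibling library and 4.74819e+06 for the hos library. Coordinates are those of danRer11.

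The promoters of troponin T and of tropomyosin 4a had the highest hos to sibling ratios among the 6 thin filament promoters. Counting by promoter, tnnt2a and tpm4a were at least 2-fold higher in hos, tnni1b, lmod2b and tpm1 had higher values in hos with intervals that held 1, and lmod3 had a lower value whose interval also held 1. The median log2 ratio of the 6 promoters was 0.69, with a range of −0.55 to 1.32, beside 0.25 for all promoters. Their pooled tags were 1.73-fold higher in hos (95% interval 1.46–2.04), where the tags of all promoters were 1.21-fold higher. Both the median and the pool include tnni1b and lmod2b, with an interval called in hos alone, and lmod3, with one in siblings alone. In the 3 called in both libraries, pooled tags were 2.01-fold higher in hos (1.65–2.47). For all promoters called in both, tags were 1.21-fold higher. Of all promoters, 1.79% were at least 2-fold higher in hos and 0.788% at least 2-fold lower. The members' counts were 2 of 6 and 0 of 6.

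A region entered the merged table when an interval was called in at least 1 library, and this choice bears on weak regions. Of all regions, 17.5% were called in hos alone and 18.9% in the sibling library alone. Among regions called in hos alone, 99.1% had a log2 ratio above 0, so a ratio above 0 there was nearly fixed by the call, and 98.5% of those called in siblings alone had a ratio below 0. Of the 6 thin filament promoters, tnnt2a, tpm1 and tpm4a were called in both libraries, tnni1b and lmod2b in hos alone, and lmod3 in the sibling library alone. Among the 12512 promoters called in both libraries, 0.296% were at least 2-fold higher in hos, and tnnt2a and tpm4a were in that share. The median sibling signal of those 12512 was 53.4, above the 20.0 of tnnt2a and the 25.6 of tpm4a. Among the 4484 promoters whose mean signal lay within the range of the 6 thin filament promoters, 2.9% were at least 2-fold higher in hos. For promoters in that range and also called in both libraries, the share was not computed.

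tnnt2a encodes cardiac troponin T, the subunit that ties the troponin complex to tropomyosin, and its loss in zebrafish gives the silent heart phenotype. Its single region, at chromosome 23, 5684944 to 5685441, lay over the gene start with its centre 53 bp upstream, and was also assigned to lad1, 34305 bp away. The signal was 20.0 in siblings and 51.4 in hos, and the highest point of the pileup went from 31 to 78. This was a 2.57-fold higher signal in hos (95% interval 1.81–3.76), a log2 ratio of 1.32, on 44 and 114 estimated tags. The counting intervals of both signals did not overlap (14.5 to 26.8 in siblings, 42.4 to 61.8 in hos). Among all promoters the tnnt2a signal stood at percentile 3.69 in siblings and at percentile 44.4 in hos.

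tnni1b encodes a troponin I, the subunit that holds back contraction when calcium is low. Its 4 regions on chromosome 6 were all called in hos alone and all had a higher value in hos, a direction that the call nearly fixed. At the promoter, at 54825971 to 54826217, the signal was 21.9 in siblings and 34.9 in hos, a fold of 1.59 whose interval held 1 (0.925–2.76). The region with the largest difference lay 5535 bp upstream of the start, at 54831277 to 54831915, where the signal was 20.0 in siblings and 44.4 in hos. That fold was 2.22 (1.60–3.08), and the same region was also assigned to csrp1b, whose start lies 14026 bp away. Inside the gene, 3198 bp from the start, the signal was 16.9 and 26.8. The region 19531 bp from the start, past the gene end and 8329 bp upstream of tnnt2b, had nearly the same signal in both libraries, 27.1 in siblings and 29.8 in hos.

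tnnc1a encodes cardiac troponin C, the calcium sensor of the complex, and it had no region within 1000 bp of its start. Its 2 regions, on chromosome 23, had values in opposite directions. Upstream by 7320 bp, at 4883186 to 4883606, the signal was 32.8 in siblings and 17.6 in hos, 1.86-fold lower in hos (1.21–2.96), and the interval was called in siblings alone. Inside the gene, 1302 bp from the start at 4891827 to 4892210, it was 22.8 in siblings and 29.8 in hos, a fold of 1.31 (0.845–2.04). The lower value of the upstream region was nearly fixed by its call in siblings alone.

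**Figure D1:**
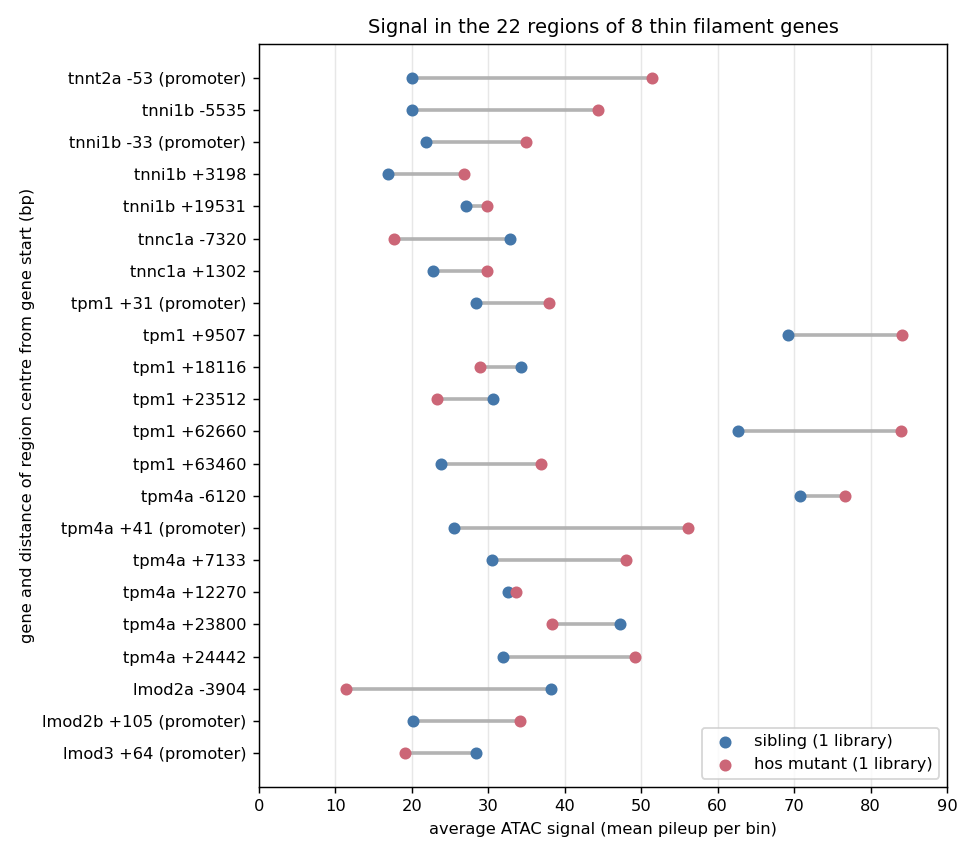
Average ATAC signal (mean pileup per bin, x axis) of the 22 regions of 8 thin filament genes (y axis, gene and distance of the region's centre from the gene start in bp), with 1 point for the sibling library and 1 for the hos library. The tnnt2a promoter runs from 20.0 to 51.4 and the tpm4a promoter from 25.6 to 56.1, whereas the lmod2a region runs from 38.2 down to 11.4.

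tpm4a encodes a tropomyosin used in the zebrafish heart. All of its 6 regions, on chromosome 22, were called in both libraries. The promoter, at 15602533 to 15602992, had a signal of 25.6 in siblings and 56.1 in hos, with pileup maxima of 34 and 80. The fold was 2.196 (1.58–3.13) and the log2 ratio 1.105. The counting intervals of the signals, 19.1 to 33.5 and 46.4 to 67.4, did not overlap.

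The other tpm4a regions showed smaller differences. The strongest, 6120 bp upstream of the start, had a signal of 70.8 in siblings and 76.6 in hos, a fold of 1.08 (0.917–1.28), although its pileup maximum was lower in hos, at 96 against 112. Within the gene, the signal 7133 bp from the start was 30.5 in siblings and 48.0 in hos, a fold of 1.57 (1.06–2.40). That interval holds the 1.16-fold level of all regions. At 12270 bp from the start the signal was 32.6 in siblings and 33.6 in hos. Near the 3′ end, the region 23800 bp from the start went from 47.2 in siblings to 38.4 in hos, and the next one, 24442 bp away, from 31.9 to 49.2. These last 2 lie 601 bp upstream and 41 bp downstream of the start of hsh2d, so they were also that gene's regions.

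Quotients of folds do not depend on how the libraries are scaled to each other. The promoter of tpm4a had a higher fold than each of the 5 other regions of its gene, with 3 quotient intervals above 1. Its fold was 2.03 times that of the upstream region (1.40–3.01), 2.13 times that of the region 12270 bp away (1.22–3.67) and 2.70 times that of the region 23800 bp away (1.65–4.41). Against the regions 7133 and 24442 bp away the quotients were 1.395 (0.810–2.39) and 1.43 (0.876–2.37), with intervals that held 1. Counting only pairs of regions called in both libraries, the region nearest to the start was set against another region of its gene in 8 pairs, all of tpm4a and tpm1. The interval lay above 1 in the 3 tpm4a pairs above and held 1 in the other 5. These intervals were not adjusted for the number of pairs. All promoters had a median log2 ratio of 0.25, and all regions beyond 1000 bp from any start had 0.06. A quotient of 1 is therefore not the general level, and quotients over all genes were not computed.

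tpm1 encodes a tropomyosin of the alpha type. Its 6 regions, on chromosome 25, showed small differences in both directions. The promoter, at 33192606 to 33193028 in a CpG island, had a signal of 28.4 in siblings and 37.9 in hos, a fold of 1.34 (0.925–1.95). A stronger CpG island region inside the gene, 9507 bp from the start, went from 69.2 to 84.1, a fold of 1.22 (1.03–1.44) and a log2 ratio of 0.28 beside 0.15 for all regions. Farther inside, the values were lower in hos, 34.3 and 28.9 at 18116 bp and 30.7 and 23.3 at 23512 bp. Both fold intervals held 1 (0.528–1.33 and 0.415–1.37). The region at 23512 bp was called in siblings alone, which nearly fixed its direction. Past the gene end, the signal was 62.6 in siblings and 84.0 in hos at 62660 bp, and 23.9 and 36.9 at 63460 bp. Both of these lie within 1000 bp of the start of lactb, at 646 bp upstream and 154 bp downstream, and so are also promoter regions of another gene. The one at 63460 bp was called in hos alone, which nearly fixed its direction.

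**Figure D2:**
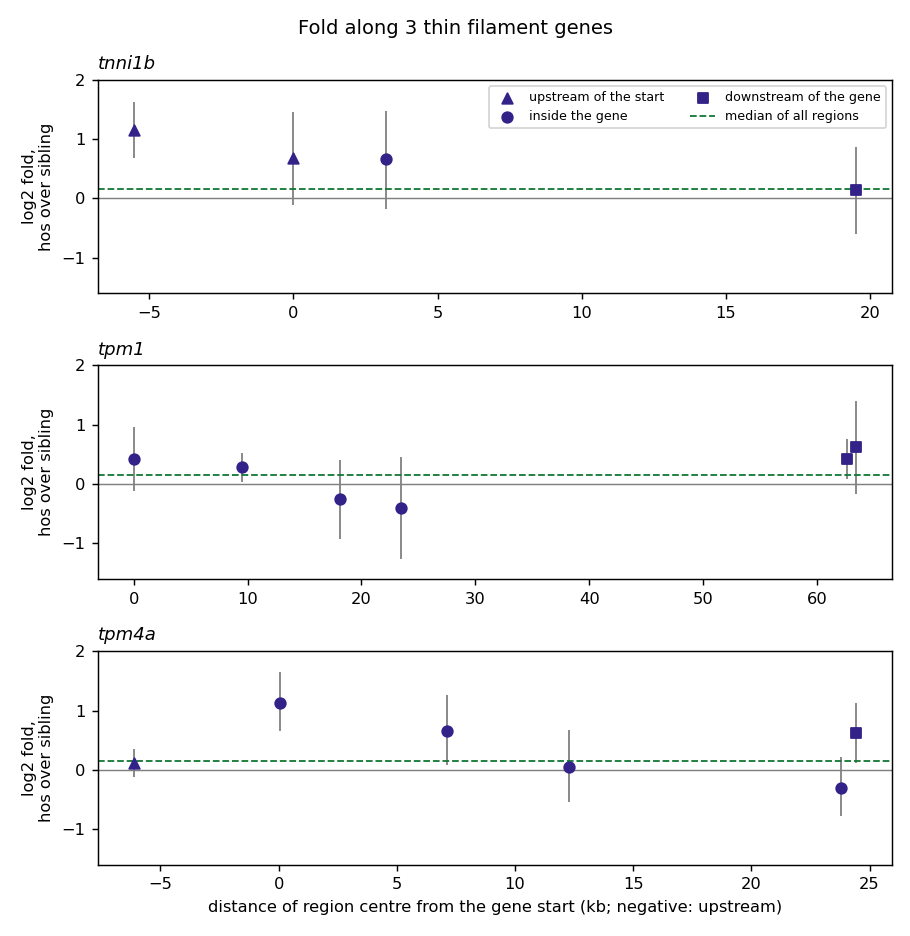
Log2 fold of the signal, hos over sibling (y axis), by distance of each region from the gene start in kb (x axis) for tnni1b, tpm1 and tpm4a, with exact 95% counting intervals as bars and the median of all regions as a dashed line. In tpm4a the promoter stands at a fold of 2.196 and the region 6120 bp upstream at 1.08, while in tnni1b the highest fold, 2.22, is 5535 bp upstream.

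The 3 leiomodin genes had 1 region each, and each region was called in 1 library alone. The lmod2b region was called in hos alone and those of lmod3 and lmod2a in siblings alone. Their differing directions were thus nearly fixed by the calls. lmod2b, a cardiac leiomodin, had its promoter at chromosome 4, 4119304 to 4119566, with a signal of 20.1 in siblings and 34.1 in hos, a fold of 1.70 whose interval held 1 (0.980–2.89). lmod3, the leiomodin best known from skeletal muscle, had its promoter at chromosome 23, 13814901 to 13815184. Its signal was 28.4 in siblings and 19.1 in hos, 1.49-fold lower in hos with an interval that held 1 (0.871–2.63). It was the one member promoter with a lower value in hos.

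The paralog lmod2a had no region within 1000 bp of its start. Its single region lay 3904 bp upstream, at chromosome 25, 27823707 to 27823989. The signal was 38.2 in siblings and 11.4 in hos, with pileup maxima of 49 and 15. It was thus 3.34-fold lower in hos (1.86–6.73), a log2 ratio of −1.66 on 48 and 14 estimated tags. This was the largest difference in either direction among the 22 regions, but the interval was called in siblings alone and the region was also assigned to asb15a, 18887 bp away. With ratios centred on the running level of regions of like mean signal, the log2 ratio was −1.20. At this low signal the running level was itself below 0, so the centring cannot decide whether the region was lower.

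**Figure D3:**
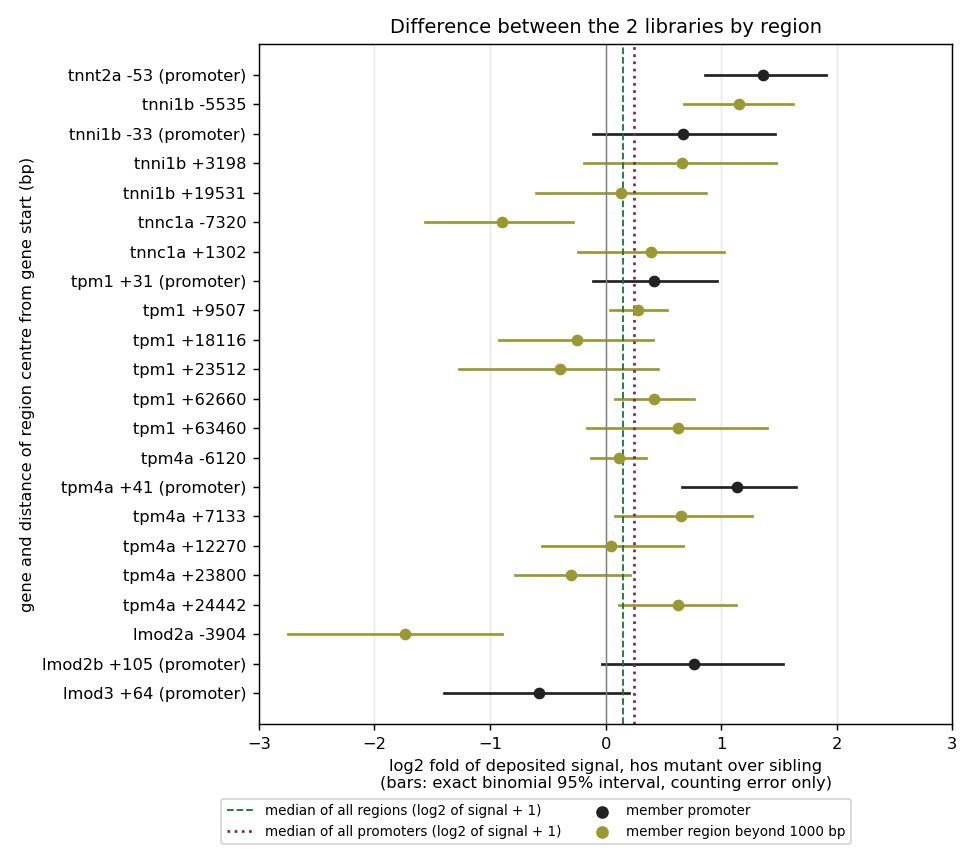
Log2 fold of the signal, hos over sibling (x axis), for the 22 regions (y axis, gene and distance from the gene start in bp), with exact binomial 95% intervals as bars and the medians of all regions and of all promoters, on signal + 1, as vertical lines. The intervals of the tnnt2a and tpm4a promoters and of the upstream tnni1b region lie above the 1.16-fold level of all regions. That tnni1b region was called in hos alone. The intervals of the upstream regions of tnnc1a and lmod2a lie below no difference, and both regions were called in siblings alone.

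Over the 22 regions the median log2 ratio was 0.39, with 16 above 0 and 6 below where 62.0% of all regions were above 0, and pooled tags were 1.25-fold higher in hos (1.16–1.34), where those of all regions were 1.16-fold higher. At least 2-fold higher in hos were 3 of 22, where 3.32% of all regions passed that limit. They were the promoters of tnnt2a and tpm4a and the upstream region of tnni1b, the last called in hos alone. At least 2-fold lower was 1 of 22, the lmod2a region called in siblings alone, where 4.83% of all regions passed. The calls were in both libraries for 12 regions, in hos alone for 6 and in siblings alone for 4. In the 12 called in both, the median was 0.39 and the range −0.29 to 1.32, beside a median of 0.17 for all regions called in both.

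By role, pooled tags are read beside the 1.16-fold higher tags of the hos library over all regions. The 12 tropomyosin regions were 1.22-fold higher in hos (1.13–1.33), an interval that holds that general level. The 7 troponin regions were 1.54-fold higher (1.32–1.80), but 4 of them were called in hos alone. The 2 called in both, of tnnt2a and tnnc1a, gave 1.99 (1.52–2.62). That value rested mostly on the tnnt2a promoter, since the tnnc1a region by itself was at 1.31 (0.845–2.04). The 3 leiomodin regions were each called in 1 library alone. Their pooled ratio of 0.722 (0.533–0.975) rested on lmod2a, and without that gene it was 1.07 (0.738–1.54).

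By place, the 16 regions beyond 1000 bp from the gene start had a median log2 ratio of 0.20, beside 0.06 for all regions that far from any start. Of the 16, 11 had a ratio above 0, where 53.7% of all regions that far from any start did. Calls were in hos alone for 4 of the 16 and in siblings alone for 3, which nearly fixed the direction of these. The 16 and all regions that far from any start are not alike, since the 16 include regions near the starts of lactb and hsh2d. Without regions within 1000 bp of another gene start, a choice made after seeing the data, the median of the remaining 12 was 0.12. The 4 regions downstream of the genes all had values above 0, as did 62.0% of all regions, but the one of tnni1b, at 0.13, was below the median of all regions. That one and the farther of the tpm1 pair were called in hos alone. Each of the 4 was also assigned to another gene.

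**Figure D4:**
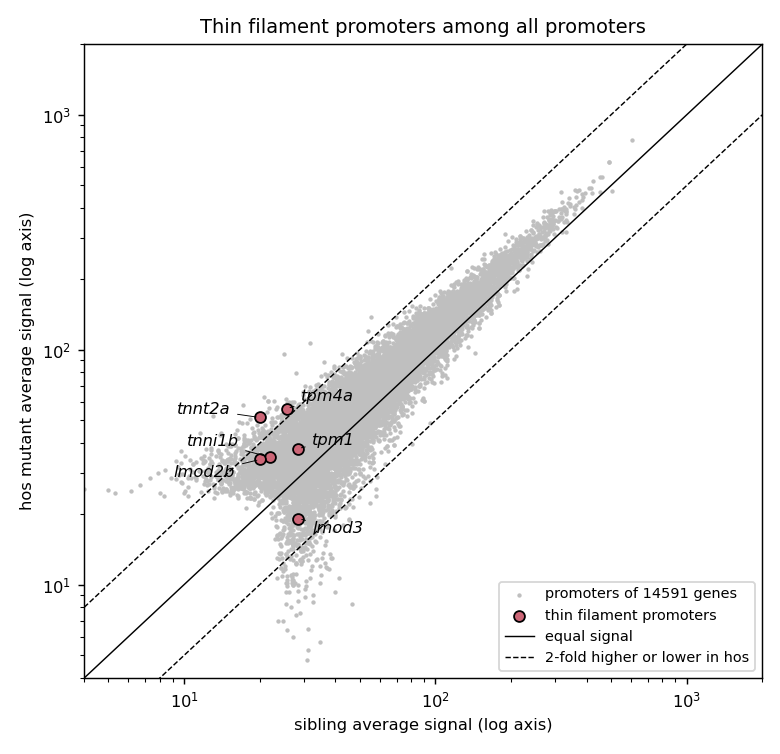
Average signal of promoters in the sibling library (x axis, log scale) and in the hos library (y axis, log scale) for 14591 genes in grey and 6 thin filament genes as labelled points, with lines at equal signal and at a 2-fold difference. In siblings the 6 points lie close together at 20.0 to 28.4, whereas in hos they spread from 19.1 for lmod3 to 56.1 for tpm4a. The lmod3 promoter was called in siblings alone, and those of tnni1b and lmod2b in hos alone, so the calls bear on both spreads. Without lmod3 the lowest hos value is 34.1, for lmod2b.

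All 6 promoters were weak in siblings. In rising order the sibling signals were tnnt2a, lmod2b, tnni1b, tpm4a, tpm1 and lmod3, from percentile 3.69 to percentile 15.4 of all promoters, and no neighbours in that order differed beyond their counting intervals. In hos the order was lmod3, lmod2b, tnni1b, tpm1, tnnt2a and tpm4a. The hos signal of lmod3 was at percentile 1.95 and that of tpm4a at percentile 49.9. The hos intervals of tnnt2a (42.4 to 61.8) and tpm4a (46.4 to 67.4) did not overlap that of lmod3 (12.2 to 28.4), and neighbours in the order overlapped. The lmod3 promoter was called in siblings alone, so its low hos signal was favoured by the call. The gap to lmod3 is therefore not read as a difference between genes. In the same way, the calls of tnni1b and lmod2b in hos alone favoured their low sibling signals.

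The folds of the 3 promoters called in both libraries were set against each other. The quotient of tnnt2a over tpm1 was 1.92 (1.14–3.28), that of tnnt2a over tpm4a was 1.17 (0.707–1.95) and that of tpm1 over tpm4a was 0.609 (0.363–1.01). The last 2 intervals held 1, and none was adjusted for the number of pairs. Quotients were computed for all 15 pairs of the 6 promoters. Those with tnni1b, lmod2b or lmod3 are not read here, since the call in 1 library alone nearly fixed the direction of these folds.

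Of 49 other thin filament genes listed, 30 were named in the table and 12 had a promoter region. The median log2 ratio of these 12 was 0.32, with 8 above 0 and 4 below where 77.3% of all promoters were above 0. Past the 2-fold limit on signal + 1 were 0 higher and 2 lower in hos, beside 1.79% and 0.788% of all promoters. The highest was acta1b, a skeletal alpha-actin, with a signal of 28.8 in siblings and 58.5 in hos. Its fold was 2.03 (1.44–2.85), but on signal + 1 its log2 ratio was 0.998, just under the limit. Next came capza1a, a subunit of the protein that caps actin filaments, with 47.4 and 68.3. The lowest were tnnt3b, a fast skeletal troponin T, with 25.4 in siblings and 9.29 in hos, and tpm3, a slow muscle tropomyosin, with 28 and 12.3. In tnnt3b the direction changed when ratios were centred on the running level of regions of like mean signal (log2 0.16 in place of −1.36). In tpm3 the value moved from −1.12 to −0.19, so neither stayed 2-fold lower. At such low signal the running level was itself below 0, so this centring cannot decide whether either promoter was lower. Both lowest promoters were called in siblings alone.

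Markers of other cell types were read the same way. Of 11 cardiomyocyte genes 8 had a promoter region, with a median log2 ratio of 0.80 beside 0.25 for all promoters, and a summed signal of 333 in siblings and 528 in hos. All 8 were above 0, as were 77.3% of all promoters, but 3 of them, nkx2.5, vmhcl and nppa, were called in hos alone. The 5 called in both libraries had a median of 0.45. No promoter region was found for vmhc, myh6 and tbx5a. Of 9 skeletal muscle genes 4 had one, with a summed signal of 114 and 98.6. Their median was −0.77, but it was −0.02 after centring on regions of like mean signal. The lowest ones, mylpfa and tnnt3b, were called in siblings alone. At their low signal the running level was itself below 0, so the centring cannot decide whether they were lower. The defining genes myod1, myog and myf5 had none, and acta1b and tnnt3b stand in this list and in the one above. The 4 endocardial promoters of 7 genes summed to 172 and 207, with a median of 0.33. The 4 epicardial and mesenchymal promoters of 6 genes had a median of −0.07 and summed to 154 and 166, with col1a2 going from 48.4 to 84.6 and tbx18 from 52.6 to 33.9. None of 5 blood genes had a promoter region. The part of cell makeup in the members' values was not tested.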

How the data were processed

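ATAC-seq libraries of sibling and hos hearts, 1 per genotype, were compared. The authors deposited a table of merged regions with an average signal and a peak signal for each library (tag pileup per bin), marks of called intervals and gene assignments. Per the labels' processing notes, MACS2 2.1.0 and danRer11 were used. Not given in the sources used here were the aligner, the treatment of duplicates, any shift of cut sites and whether libraries were scaled. Columns holding the authors' own ratio between genotypes were not used.

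Regions were kept as deposited. The log2 ratio used a pseudocount of 1 and no scaling. Promoters were regions within 1000 bp of a gene start, and calls were set at 2-fold on signal + 1. Tags were estimated as signal times length over 224, a divisor that gave back the deposited tag maxima within rounding in 100% of regions. Intervals at 95% were exact (binomial for folds, Poisson for signals, conditional for quotients of folds). Tags may include copies of 1 molecule, so intervals are minimal. No test of groups and no paired analysis was possible with 1 library each. Other thin filament genes were named when among the 2 highest or 2 lowest promoters. Members and lists were chosen with earlier results of these data known. Alternatives were centring on the median or by lowess (span 0.2), pseudocounts of 0.1 and 5, peak signal, other promoter rules, a 1.5-fold limit, and subsets. Splits by call within roles and marker lists, and leaving out lmod2a, were added after seeing the data. The code was tested on simulated data. Intervals came from scipy 1.17.1, lowess from statsmodels 0.14.6, tables from pandas 2.3.3 with numpy 2.4.6, and plots from matplotlib 3.10.9, under Python 3.11.15. No sequence was read.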

Additional observations from a re-analysis of the deposited data

How the results depend on the processing

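The direction of each of the 6 thin filament promoters was the same under every alternative run on it, but several alternatives could not change it. A pseudocount of 0.1 or 5 leaves the sign of a log2 ratio as it is. For tnni1b, lmod2b and lmod3 the call in 1 library alone had also nearly fixed the direction. The log2 ratio of tnnt2a ranged from 1.17 to 1.36 and stayed at or above 2-fold in 7 of 7 settings. That of tpm4a ranged from 0.95 to 1.21 and did so in 5 of 7. Taking the strongest region within 1000 bp, or a promoter limit of 2000 bp, kept the same region for all 6 genes. Those settings could not change their values. The count of member promoters at or above 2-fold was 2, and it was 1 with median centring and 1 with lowess centring. At a limit of 1.5-fold it was 4, including tnni1b and lmod2b, which were called in hos alone. The shares of all promoters under these alternatives were not computed, so these counts have no background beside them. The median over promoters, 0.69, was 1.105 in the 3 called in both libraries. The deposited table of genes gave 0.44 for the same 6 genes, but its values are mean peaks over all regions of a gene and not promoter values. The median over the 16 regions beyond 1000 bp, 0.20, was 0.051 with median centring, 0.059 with lowess centring and 0.42 in the 7 regions at or above the median signal of all regions, and 0.12 without regions within 1000 bp of another gene start (chosen after seeing the data). The promoter median was 0.65 without tnnt2a and 0.73 without lmod3. No paired analysis was possible because each genotype had 1 library. Promoter signals rested on few tags, as with 44 in siblings for tnnt2a, and the intervals of the promoter folds of tpm1, tnni1b and lmod2b, at 1.34, 1.59 and 1.70, held 1.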

Other observations

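Values of paralogs outside the chosen genes were noted after they had been seen. tpma, a skeletal tropomyosin, had a region inside the gene 2137 bp from its start with a signal of 15.8 in siblings and 38.6 in hos, called in hos alone. tnnt2b, the paralog of tnnt2a, had a region 15478 bp from its start with 40.9 in siblings and 17.4 in hos, called in siblings alone. Such calls nearly fixed both directions. The other tpma region, called in both libraries, had 26.5 in siblings and 39.1 in hos. The other tnnt2b region, called in hos alone, had 27.1 and 29.8. Regions of tnnt2c and tnnt2e had log2 ratios from −0.10 to 0.95, the highest one called in hos alone.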
